A study of Mus musculus with 9 samples.

Results

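Chemokine receptor genes of myeloid cells were followed across 3 mouse cell lines by RNA-seq of poly-A RNA. The 9 members were *Ccr1*, *Ccr2*, *Ccr3*, *Ccr7*, *Ccr9*, *Cx3cr1*, *Cxcr2*, *Cxcr3* and *Cxcr4*, picked by symbol from the 54347 genes of the count table. Hox-WT is a hematopoietic progenitor line of wild-type genotype, and Hox-URE is a progenitor line of genotype UREd/d. Both were made from c-Kit+ bone marrow cells of mice by immortalization with a Hoxb8 fusion to the estrogen receptor, which keeps cells undifferentiated while estradiol is present. URE-AML, named B22 in the labels, is an AML blast-like line of the same genotype, grown out from leukemic blasts. UREd/d stands for homozygous loss of the URE, the distal enhancer upstream of *Spi1*, which encodes the transcription factor PU.1. All 3 lines were grown in the same medium with serum, IL-3, IL-6, SCF and estradiol, and 3 libraries (1 to 3) were made from each. Each combination of genotype and stage was represented by a lone line, so groups here differ as lines, and the labels did not say whether libraries were grown as separate cultures. The p-values then measure only the spread between these libraries, which may be technical.

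Chemokine receptors are G protein-coupled receptors that steer leukocytes along gradients of small secreted proteins, the chemokines. A bound receptor signals through Gi proteins to phosphoinositide 3-kinase and Rac, and it is then silenced by receptor kinases, arrestins and RGS proteins. In the bone marrow, CXCR4 and its ligand CXCL12 hold stem cells, progenitors and maturing neutrophils in place. CXCR2 draws neutrophils out, CCR2 lets classical monocytes leave for the blood, and CX3CR1 marks patrolling monocytes and macrophages. CCR1 is found on neutrophils and monocytes, and CCR3 is the eotaxin receptor of eosinophils and basophils. CCR7 guides dendritic cells and T cells to lymph nodes, CCR9 guides lymphocytes to the gut, and CXCR3 marks activated T and NK cells.

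Hox-WT libraries had 25857565 to 28588718 total counts, those of Hox-URE 20879183 to 28300453 and those of URE-AML 20331064 to 23907360. Levels are given as CPM (counts relative to the library total, adjusted by its TMM factor), and levels of different genes are compared as CPM per kilobase of exon, while marker lists are summed in plain CPM. A floor of 3 counts corresponded to 0.104 to 0.153 CPM and covers counting error only. *Spi1* was at 103 ± 6.79 CPM in Hox-WT (SD, n = 3 for this and every line), and it had 1, 1 and 0 counts in the Hox-URE libraries. In URE-AML it stood at 4.79 ± 2.02 CPM, 21.5-fold under its Hox-WT level (edgeR quasi-likelihood test, adjusted p = 4.53e-07). The progenitor label of the Hox lines was matched by *Kit*, the SCF receptor, at 175 CPM in Hox-WT and 43.0 CPM in Hox-URE. URE-AML had *Kit* at 97.0 CPM, whereas the progenitor marker *Cd34* had 1, 0 and 0 counts there against 1430 CPM in Hox-WT.

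The leading receptor was a different one in each line. Per kilobase of exon, *Cxcr4* made up 74.8% ± 5.39 of the summed level of the 9 receptors in Hox-WT. *Ccr2* made up 76.6% ± 0.624 of it in Hox-URE, and *Ccr1* made up 57.2% ± 3.55 of it in URE-AML, followed by *Cxcr4* at 35.2% ± 5.39. The sum itself was 15.6 to 19.3 CPM per kilobase in the Hox-WT libraries. Hox-URE reached 163 to 180 and URE-AML 151 to 176, so the libraries of the URE-deleted lines all lay above those of Hox-WT and overlapped each other. That overlap depended on the length scaling, since in plain CPM the Hox-URE libraries (933 to 1030) all lay above those of URE-AML (391 to 432), and these above Hox-WT (41.0 to 47.7). Of the 9 genes, 7 had counts in at least 1 library, and 6 passed the filter on low counts and were tested. *Ccr7* and *Ccr9* had 0 counts in all 9 libraries, each below the floor of 3 counts, and *Cxcr3* had at most 5 counts in any library. In bulk RNA, fewer cells that express a receptor and less RNA per cell cannot be told apart.

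**Figure D1:**
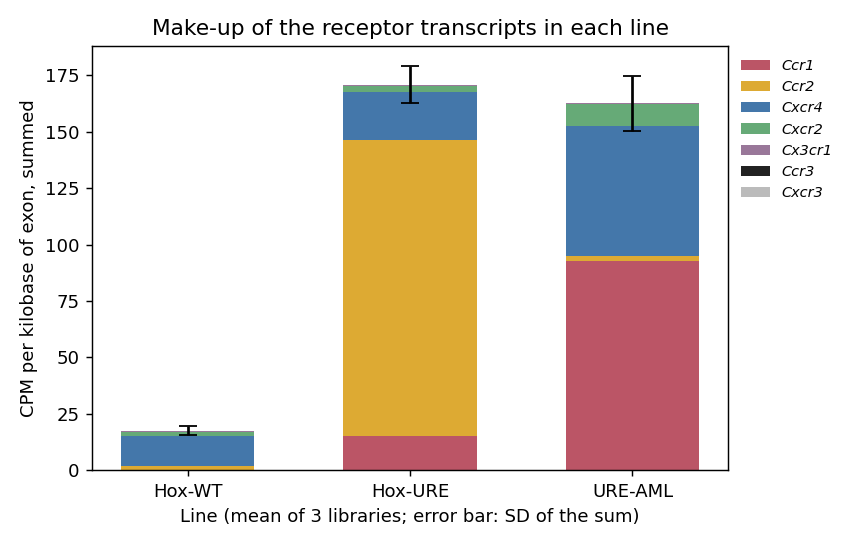
Stacked bars show the mean CPM per kilobase of exon of each receptor in each line (y axis), with the SD of the summed level over 3 libraries as the error bar. The Hox-WT bar, at 17.6, is mostly *Cxcr4*, the Hox-URE bar, at 171, is mostly *Ccr2*, and the URE-AML bar, at 163, is mostly *Ccr1* and *Cxcr4*; *Cx3cr1*, *Ccr3* and *Cxcr3* are too low to be seen.

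The sequences just before the start sites of *Ccr1* and *Cxcr4* are shown because these receptors differed in all 3 comparisons and because the enhancer of a DNA-binding factor, PU.1, was deleted. Each is the 250 bases upstream of the RefSeq start (GRCm38.p6, strand of the gene, 5′ to 3′), and neither held an annotated exon. Capitals mark matches to 4 motifs searched on both strands: GAGGAA, a core that PU.1 and other ETS factors bind, TGTGGT for RUNX factors, TTGCNNAA for C/EBP factors and AGATAA for GATA factors.
Ccr1 (chr9:123968693-123968942, minus strand): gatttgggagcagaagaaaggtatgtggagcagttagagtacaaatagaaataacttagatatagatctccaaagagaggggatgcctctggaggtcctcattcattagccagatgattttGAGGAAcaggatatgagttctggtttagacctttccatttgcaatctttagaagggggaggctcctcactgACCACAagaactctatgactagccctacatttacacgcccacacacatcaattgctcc
Cxcr4 (chr1:128592300-128592549, minus strand): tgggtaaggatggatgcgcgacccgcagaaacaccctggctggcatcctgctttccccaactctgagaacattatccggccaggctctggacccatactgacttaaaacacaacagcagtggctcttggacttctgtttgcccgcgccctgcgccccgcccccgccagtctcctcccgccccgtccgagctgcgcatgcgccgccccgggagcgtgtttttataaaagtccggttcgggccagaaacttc
The *Ccr1* window held GAGGAA on the strand of the gene, with its first base 129 bases before the start, and TGTGGT on the other strand 58 bases before it, where it reads ACCACA. The *Cxcr4* window held none of the 4 motifs and was richer in G and C (61.2% against 43.6%). RefSeq windows were found for 8 of the 9 receptors. GAGGAA was also present before *Ccr3*, *Cxcr2* and *Cxcr3*, TGTGGT before *Cx3cr1* and *Cxcr3*, and AGATAA before *Ccr2* and *Ccr3*, and no matches overlapped. Annotated exons of the same gene covered 250 of the 250 bases of the *Cx3cr1* window, 233 of the *Ccr2* window and 122 of the *Cxcr3* window. Matches in these 3 windows may thus lie in transcribed sequence. Of 32851 such windows of all genes, 23.3% held GAGGAA, 14% TGTGGT, 9.56% TTGCNNAA and 9.99% AGATAA. A match in letters is a description of the window and no evidence of binding.

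*Ccr1*, a receptor for CCL3, CCL6 and CCL9 among others, was nearly silent in Hox-WT, higher in Hox-URE and highest in URE-AML. Its level was 0.225, 0.0 and 0.173 CPM in Hox-WT (6, 0 and 5 counts), 47.8, 45.7 and 36.3 CPM in Hox-URE and 273, 251 and 265 CPM in URE-AML. No library of one line overlapped with those of another. Hox-URE exceeded Hox-WT by 8.31 ± 0.32 on the log2 scale (SE, adjusted p = 3.73e-08), and the ratio of summed CPM was 334 with a 95% counting interval of 186 to 669. URE-AML exceeded Hox-WT by 10.91 ± 0.32 (adjusted p = 2.77e-09), and it exceeded Hox-URE 6.07-fold (adjusted p = 1.39e-06). The gene (ENSMUSG00000025804) lies at chr9:123962124-123968692 (minus strand, GRCm38), and 18 of the 2803 31-base words of its exons also occur in *Ccr3* or *Ccr1l1*.

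*Ccr2*, the CCL2 receptor that inflammatory monocytes use to leave the marrow, was high in Hox-URE alone among the 3 lines. It was measured at 14.4, 13.1 and 10.6 CPM in Hox-WT and at 840, 939 and 877 CPM in Hox-URE. In URE-AML it stood at 12.9, 18.5 and 11.6 CPM, a range that overlapped with Hox-WT. Hox-URE was 69.8-fold above Hox-WT (log2 6.13 ± 0.20, adjusted p = 1.46e-08). URE-AML was 61.9-fold below Hox-URE (log2 -5.95 ± 0.20, adjusted p = 7.89e-09) and could not be distinguished from Hox-WT, with a log2 difference of 0.17 (95% interval -0.17 to 0.51, adjusted p = 0.42). The lines that share the URE deletion thus stood far apart in *Ccr2*, with the libraries of the leukemic line reaching at most 18.5 CPM. *Ccr2* (ENSMUSG00000049103) lies at chr9:124101950-124113557 (plus strand), and 230 of its 6745 exonic 31-base words (3.41%) occur in other genes.

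*Ccr3* was low in all lines and was called higher in both URE-deleted lines than in Hox-WT. Hox-WT libraries held 1, 0 and 0 counts, Hox-URE libraries 16, 18 and 13, and URE-AML libraries 13, 3 and 5. The ratio of summed CPM to Hox-WT was 55.2 for Hox-URE (95% counting interval 9.44 to 2230, adjusted p = 0.000434) and 25.4 for URE-AML (4.09 to 1050, adjusted p = 0.00274). Between the URE-deleted lines, 0.664 ± 0.0816 CPM in Hox-URE and 0.294 ± 0.203 CPM in URE-AML did not pass the test (adjusted p = 0.0984), although their libraries did not overlap. Without library 1 of URE-AML, which had the most counts of that line, the difference passed it (log2 -1.85, adjusted p = 0.0295). *Ccr3* (ENSMUSG00000035448) lies at chr9:124021972-124031689 (plus strand).

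*Cxcr4*, the CXCL12 receptor that retains progenitors in the marrow, had the smallest range of the 6 tested receptors over the 9 libraries (2.66 in log2 CPM) and was highest in URE-AML. The Hox-WT libraries were at 22.7, 20.8 and 28.1 CPM, those of Hox-URE at 34.2, 38.1 and 43.4 CPM and those of URE-AML at 91.4, 89.6 and 131 CPM. The lines did not overlap, and URE-AML library 3 stood above its other two. URE-AML was 4.36-fold above Hox-WT (adjusted p = 3.87e-06) and 2.7-fold above Hox-URE (adjusted p = 6.14e-05). Hox-URE was 1.61-fold above Hox-WT (log2 0.69 ± 0.17, adjusted p = 0.0074). That smallest step was lost with scaling by library size only (log2 0.58, short of the 1.5-fold threshold) and in a test against a 1.5-fold change (adjusted p = 0.316). *Cxcr4* (ENSMUSG00000045382) lies at chr1:128588199-128592293 (minus strand) and shares none of its 31-base words with other genes.

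*Cxcr2*, which mobilizes neutrophils in response to CXCL1 and CXCL2, was also highest in URE-AML. It was at 7.61, 5.68 and 4.70 CPM in Hox-WT, 9.29, 9.32 and 7.0 CPM in Hox-URE and 36.1, 30.5 and 23.2 CPM in URE-AML. All URE-AML libraries were above those of the other lines, which overlapped. The level in URE-AML was 4.99-fold that in Hox-WT (adjusted p = 1.03e-05) and 3.5-fold that in Hox-URE (adjusted p = 5.87e-05). Hox-URE and Hox-WT differed by 0.51 ± 0.22 (log2, 95% interval 0.08 to 0.95, adjusted p = 0.0752), which did not pass the test, but without library 1 of Hox-WT it did (log2 0.72, adjusted p = 0.0276). *Cxcr2* (ENSMUSG00000026180) lies at chr1:74153989-74161246 (plus strand), and 7.7% of its exonic 31-base words occur elsewhere in the annotation.

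*Cx3cr1*, the fractalkine receptor of patrolling monocytes, had low levels and passed the test in no comparison. The values were 2.77, 1.43 and 2.42 CPM in Hox-WT, 0.328, 1.04 and 1.89 CPM in Hox-URE and 0.808, 0.951 and 0.858 CPM in URE-AML. Hox-URE overlapped with both other lines, and URE-AML lay below Hox-WT in all libraries. The difference of URE-AML from Hox-WT was -1.34 ± 0.52 on the log2 scale (adjusted p = 0.0501), and over the alternatives its adjusted p ran from 0.00672 to 0.145. That of Hox-URE from Hox-WT was -1.05 ± 0.52 (adjusted p = 0.113), and without library 3 of Hox-URE it was -1.71 (adjusted p = 0.0222). URE-AML and Hox-URE differed by -0.28 (95% interval -1.35 to 0.78, adjusted p = 0.679). *Cx3cr1* (ENSMUSG00000052336) lies at chr9:119901616-120069879 (minus strand), and its exons overlap those of the antisense gene *Gm33858* on the other strand, which stranded libraries keep apart.

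The 3 receptors without a test belong chiefly to lymphoid and dendritic cells. *Cxcr3* (ENSMUSG00000050232, chrX:101731535-101734269, minus strand) had 0, 1 and 0 counts in Hox-WT, 2, 3 and 5 in Hox-URE and 0, 2 and 1 in URE-AML. *Ccr7* (ENSMUSG00000037944, chr11:99144196-99155077, minus strand) and *Ccr9* (ENSMUSG00000029530, chr9:123678439-123784330, plus strand) had no counts. At these depths *Ccr7* and *Ccr9* could be present in any line at up to the floor of 3 counts per library without being seen.

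**Figure D2:**
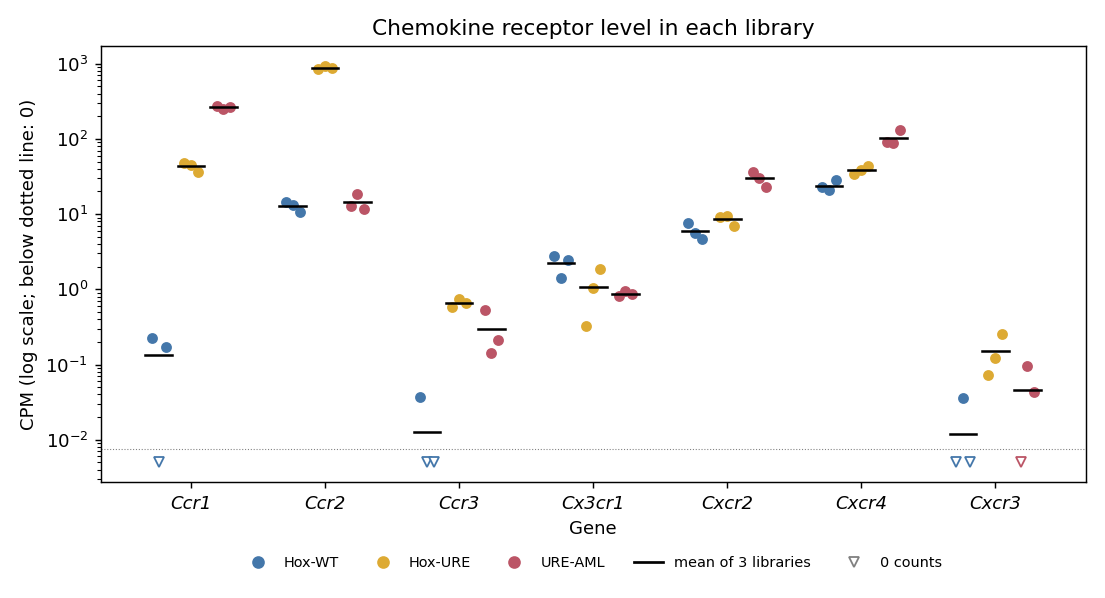
Points give the CPM of each receptor in each library on a log axis, colored by line, with black bars for the mean of 3 libraries and open triangles for libraries with 0 counts. *Ccr2* stands between 840 and 939 CPM in Hox-URE and at most at 18.5 CPM elsewhere, whereas *Ccr1*, *Cxcr2* and *Cxcr4* have their highest points in URE-AML.

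Counted together, 4 of the 6 tested receptors stood above Hox-WT in Hox-URE and none stood below it (*Ccr1*, *Ccr2*, *Ccr3* and *Cxcr4*). The background of that comparison was 21.3% called higher and 15.9% called lower among 13082 genes. For URE-AML beside Hox-WT, 4 were higher (*Ccr1*, *Ccr3*, *Cxcr2* and *Cxcr4*) and none was lower, where 23.0% of all genes were called higher and 20.2% lower. The edgeR count of 0 lower receptors in these comparisons became 1 under some alternatives (*Cx3cr1*), among them DESeq2 for URE-AML, and 5 of the 6 genes had an unadjusted p under 0.05 in each comparison. From Hox-URE to URE-AML, *Ccr1*, *Cxcr2* and *Cxcr4* were higher and *Ccr2* was lower, against 20.3% and 22.4% of all genes. The median log2 difference of the tested receptors was 2.99, 2.22 and 0.57 in these comparisons, beside 0.000245, 0.00165 and 0.0 over all tested genes. These comparisons share lines, so their counts are not independent, and the 6 genes passed the filter in part through the lines in which they were high.

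**Figure D3:**
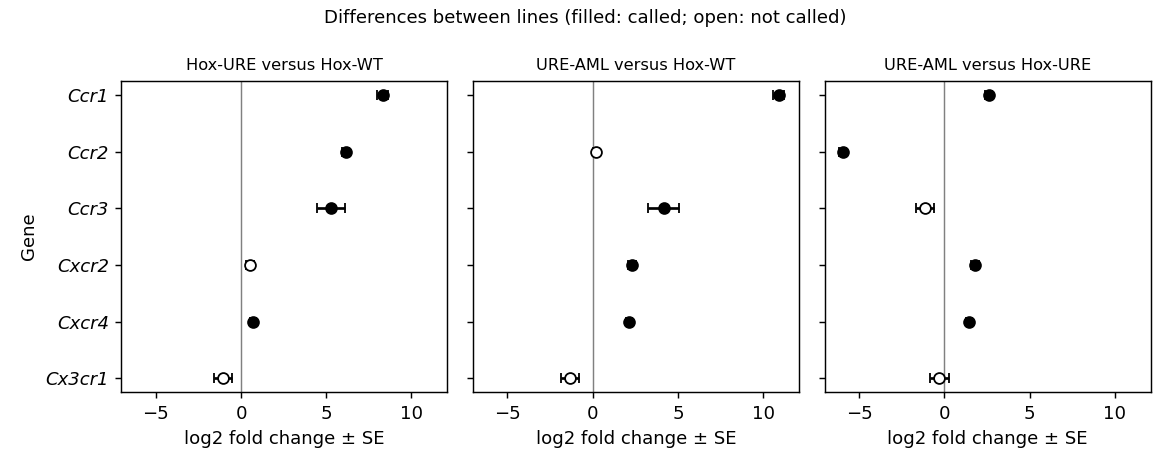
The log2 fold change of each tested receptor is plotted with its SE in each of the 3 comparisons, with filled points for differences that were called. *Ccr1* lies right of 0 in every panel, up to 10.91, and *Ccr2* moves from 6.13 in Hox-URE against Hox-WT to -5.95 in URE-AML against Hox-URE.

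*Ccr1*, *Ccr3*, *Ccr2* and *Ccr9* sit close together on chromosome 9, in a stretch with 7 of the chemokine receptor genes analysed (chr9:123678439-124113557, GRCm38), so their values were set beside those of the genes around them. *Ccr1l1* lies between *Ccr1* (8550 bases away) and *Ccr3* (43563 bases away), and *Ccr2* lies 70260 bases beyond *Ccr3*. Within this stretch, *Cxcr6* had 0 counts, *Xcr1* 1 count and *Ccr1l1* 6 counts over all 9 libraries. The 9 genes outside the receptor family tested within 500000 bases had median log2 differences of 0.37, -0.27 and -0.50 in the 3 comparisons, in the order above. Among these 9, Hox-URE had 2 called above and 2 called below Hox-WT, URE-AML had none called against Hox-WT, and from Hox-URE to URE-AML 1 was called up and 3 down. The shares of all genes called higher and lower were 21.3% and 15.9%, 23.0% and 20.2%, and 20.3% and 22.4%, to which the Hox-URE counts of 2 each way were close. Inside the stretch, *Lztfl1* and *Fyco1* differed from Hox-WT by at most 0.56 and were not called in either line, while *Fyco1* was called lower in URE-AML than in Hox-URE (log2 -1.01). Across the 717 tested genes of chromosome 9 the medians were 0.0243, -0.0137 and -0.0545.

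**Figure D4:**
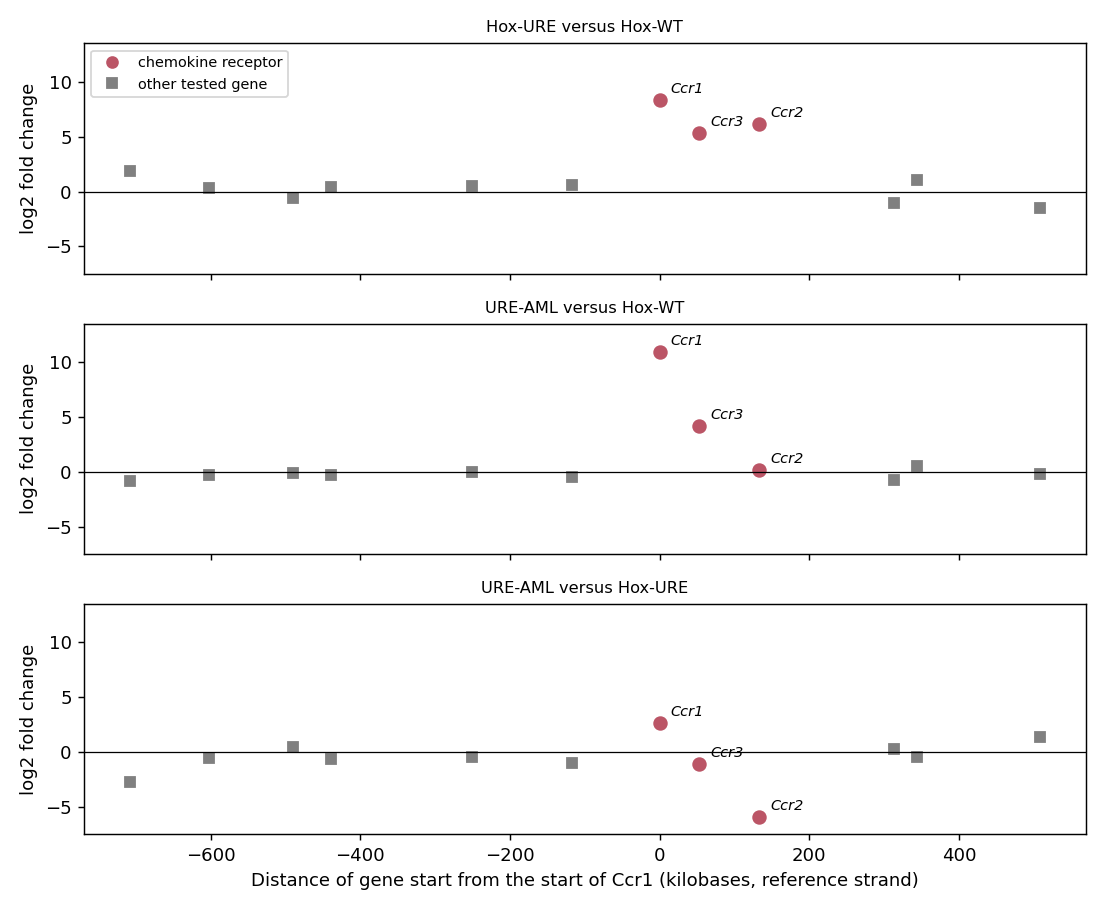
Each point is the log2 fold change of a tested gene (y axis) against the distance of its start from that of *Ccr1* in kilobases (x axis), with receptors as circles and other genes as squares. The 9 squares stay between -2.74 and 1.85, while *Ccr1* reaches 10.91 and *Ccr2* runs from 6.13 to -5.95.

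RNA of ligands was detected for some of these receptors and not for others. Of 36 chemokines listed, 11 had 0 counts throughout and 13 were tested. Those at 0 included the CXCR2 ligands *Cxcl1* and *Cxcl5*, the CCR3 ligands *Ccl11* and *Ccl24* and the CCR7 ligands *Ccl19* and *Ccl21a*. *Cxcl2*, another CXCR2 ligand, had 0 counts in Hox-WT, 10, 0 and 2 in Hox-URE and 1, 2 and 0 in URE-AML. Against Hox-WT, 5 were higher and 4 lower in Hox-URE and 8 were higher and 3 lower in the leukemic line, which had 6 above and 3 below their Hox-URE level. All-gene shares called higher and lower were 21.3% and 15.9% for Hox-URE against Hox-WT, 23.0% and 20.2% for URE-AML against Hox-WT and 20.3% and 22.4% between the URE-deleted lines. Some of the 13, such as *Cxcl12*, had no counts outside the line or lines in which they were high and passed the filter through these, so the counts of calls do not stand for all ligands. The 4 lower in Hox-URE became 2 without library 3 of Hox-WT and 3 without library 2 of Hox-URE, and the calls of *Ccl9*, *Cx3cl1* and *Cxcl10* in that comparison were each lost when single libraries were left out, library 2 of Hox-URE among them. Among the CCR1 ligands, *Ccl9* was at 909 CPM in Hox-WT and 1400 CPM in Hox-URE (adjusted p = 0.0289) but at 10.7 CPM in URE-AML, 84.9-fold below Hox-WT (adjusted p = 2.56e-08). *Ccl6* ran the other way, at 0.961 CPM in Hox-WT, 5.81 CPM in Hox-URE and 130 CPM in URE-AML (134-fold above Hox-WT in URE-AML, adjusted p = 9.43e-06). *Ccl3* was 6.79-fold higher in Hox-URE (adjusted p = 0.000758) and 6.16-fold higher in URE-AML (adjusted p = 0.000821) than in Hox-WT. Hence URE-AML, in which *Ccr1* was highest, had lower *Ccl9* and higher *Ccl6* and *Ccl3* than Hox-WT.

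The CCR2 ligand *Ccl2* had 24, 20 and 12 counts in Hox-WT and 0 in every Hox-URE library, at least 5.25-fold lower (adjusted p = 0.0029, floor of 3 counts per library). In URE-AML, where *Ccr2* was near its Hox-WT level, *Ccl2* was lower too, with 4, 0 and 0 counts (ratio of summed CPM to Hox-WT 0.0864, 95% counting interval 0.0228 to 0.234, adjusted p = 0.0108). *Ccl12*, another CCR2 ligand, went the other way there, with 0, 2 and 0 counts in Hox-WT and 16, 15 and 10 in URE-AML. Its ratio of summed CPM was 24.8 for URE-AML against Hox-WT (95% counting interval 6.44 to 212, adjusted p = 0.00215). In Hox-URE, *Ccl12* had 0 counts. The CXCR4 ligand *Cxcl12*, a product of marrow stroma, was counted in Hox-URE only, with 65, 86 and 137 counts against 0 in the 6 libraries of the other lines. That is at least 40.0-fold above Hox-WT (adjusted p = 0.000384). *Cx3cl1*, the fractalkine gene, was at 0.427 CPM in Hox-WT and 7.0 CPM in URE-AML (16.2-fold, adjusted p = 0.00016). *Cxcl10*, a CXCR3 ligand, was at 0.359 and 12.9 CPM in the same lines (35.5-fold, adjusted p = 8.98e-06). *Cx3cl1* and *Cxcl10* were thus higher in the line in which their receptors had at most 0.951 CPM in any library.

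**Figure D5:**
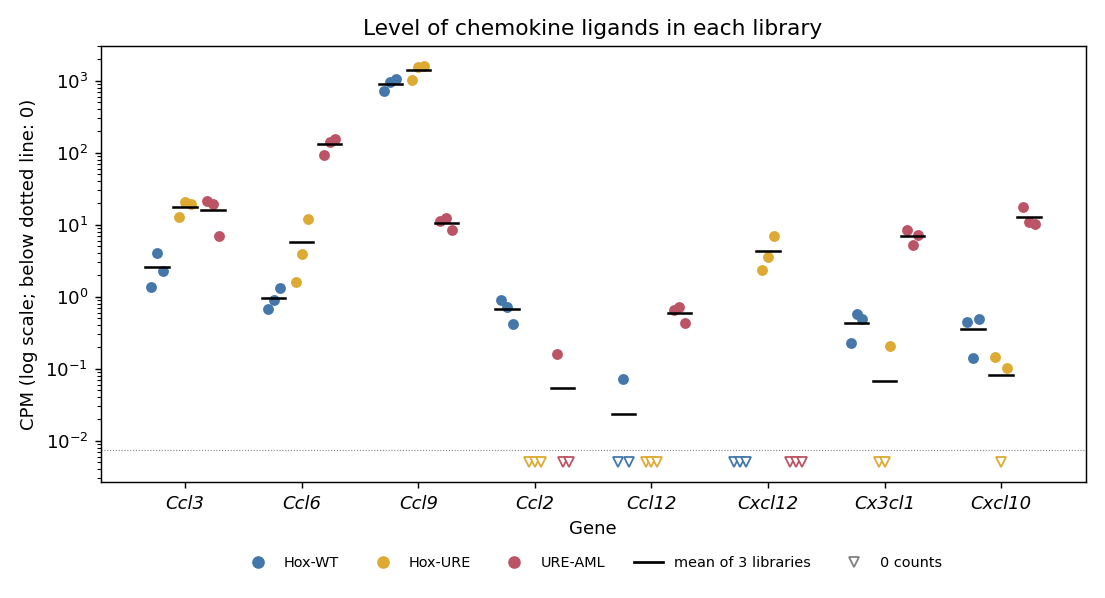
Points give the CPM of 8 ligands in each library on a log axis, with the same colors, mean bars and triangles as for the receptors. *Ccl9* falls from 1400 CPM in Hox-URE to 10.7 CPM in URE-AML while *Ccl6* climbs to 130 CPM, and the *Cxcl12* points lie above 0 in Hox-URE only.

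Of 10 other chemokine receptor genes, 4 were tested, and relative to Hox-WT, Hox-URE had 2 and URE-AML 4 of these at a higher level (21.3% and 23.0% of all genes), with none lower (15.9% and 20.2%). As *Ccr4*, *Ccr10* and *Cxcr5* had at most 9 counts in any Hox-WT library and passed the filter through the other lines, the direction of these counts was largely set by the filter. The count of 0 lower in Hox-URE by edgeR was 1 with DESeq2, with no filter, with the replicate block and without library 3 of Hox-WT, and 3 of these 4 genes reached an unadjusted p under 0.05 there. The 4 higher in URE-AML became 2 when only the 6 libraries compared were fitted. *Ccr4* had 0, 1 and 1 counts in Hox-WT and 1.39 ± 0.407 CPM in Hox-URE (ratio of summed CPM 59.9, 95% counting interval 16.2 to 501, adjusted p = 5.09e-05). *Ccr10*, a skin-homing receptor of lymphocytes, was at 0.184 CPM in Hox-WT and 9.12 ± 4.85 CPM in URE-AML (49.2-fold, adjusted p = 2.44e-05). *Cxcr5*, named after its values were seen, had 0 counts in Hox-WT and 0.758 CPM in Hox-URE, at least 7.03-fold higher (adjusted p = 0.00105). None of 4 atypical receptors, which bind chemokines without signalling, was tested. Of 9 tested receptors for other attractants, 4 were above and 3 below Hox-WT in Hox-URE (44.4% and 33.3%, against 21.3% and 15.9% of all genes), and 5 were above and 3 below it in URE-AML (55.6% and 33.3%, against 23.0% and 20.2%). The last count was 5 without library 1 of URE-AML. *C5ar1*, the complement C5a receptor, had 1, 0 and 2 counts in Hox-WT and 60.4, 22.3 and 35.6 CPM in URE-AML (ratio of summed CPM 1130, 95% counting interval 385 to 5470, adjusted p = 2.76e-07). *Cmklr1*, the chemerin receptor, was at 0.214 CPM in Hox-WT, 1.71 CPM in Hox-URE and 48.3 CPM in URE-AML (ratio of summed CPM to Hox-WT 224 in URE-AML, 95% counting interval 142 to 379, adjusted p = 8.13e-09). *S1pr3*, a receptor for sphingosine 1-phosphate, fell from 40.6 CPM in Hox-WT to 0.498 CPM in URE-AML (log2 -6.32 ± 0.21, adjusted p = 5.99e-09). *Ltb4r1*, the leukotriene B4 receptor of neutrophils, was, relative to Hox-WT, 23.3-fold lower in Hox-URE (adjusted p = 5.12e-06) and 10.2-fold higher in URE-AML (adjusted p = 2.84e-06).

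Of 19 tested genes that carry the signal from the receptors to the cytoskeleton, Hox-URE had 3 above and 3 below Hox-WT, which is 15.8% each way and no more than the 21.3% and 15.9% of all genes. URE-AML had 5 above and 8 below (26.3% and 42.1%, against 23.0% and 20.2%). The 3 higher in Hox-URE became 1 without library 3 of Hox-URE or library 1 of Hox-WT, and the 5 higher in URE-AML became 3 without its library 2 or library 3 of Hox-WT. The Gγ subunit gene *Gng2* fell from 31.4 CPM in Hox-WT to 0 counts in Hox-URE (at least 243-fold lower, adjusted p = 1.32e-06) and 0.168 CPM in URE-AML (adjusted p = 1.23e-06). *Pik3r6*, a regulatory subunit gene of phosphoinositide 3-kinase gamma, was at 10.6 CPM in Hox-WT and 2.11 CPM in Hox-URE (adjusted p = 0.000643) and had 0 counts in URE-AML (at least 80.6-fold below Hox-WT, adjusted p = 4.53e-06). *Tiam1*, a Rac exchange factor, was 47.5-fold lower in Hox-URE (adjusted p = 3.16e-09) and 5.19-fold lower in URE-AML (adjusted p = 5.48e-08). *Dock2*, the Rac activator that leukocytes need to migrate, was at 237 and 379 CPM in the Hox lines and at 13.4 CPM in URE-AML (17.6-fold below Hox-WT, adjusted p = 1.33e-07), whereas *Rac1* was 2.42-fold above Hox-WT there (adjusted p = 3.43e-07). URE-AML, the line with the highest *Ccr1*, *Cxcr2* and *Cxcr4*, thus had less *Dock2* and more *Rac1* RNA than Hox-WT.

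Of 15 genes that switch receptors off, Hox-URE had 8 above and 2 below Hox-WT (53.3% and 13.3%, against 21.3% and 15.9% of all genes), and URE-AML had 3 above and 6 below (20.0% and 40.0%, against 23.0% and 20.2%). The share called higher in URE-AML and that called lower in Hox-URE were thus near the background. The receptor kinase gene *Grk3* was at 25.2 and 41.8 CPM in Hox-WT and Hox-URE and had 0 counts in all URE-AML libraries (at least 192-fold below Hox-WT, adjusted p = 1.36e-07). *Rgs16*, an RGS protein gene, had 2, 1 and 1 counts in Hox-WT, 58, 52 and 37 in Hox-URE and 36, 7 and 14 in URE-AML (ratio of summed CPM 43.2 for Hox-URE, 95% counting interval 16.5 to 161, adjusted p = 8.49e-05). Another receptor kinase gene, *Grk5*, was 8.43-fold higher in Hox-URE (adjusted p = 3.19e-05) and 12.1-fold higher in URE-AML (adjusted p = 7.1e-06). *Rgs18*, an RGS protein gene of myeloid cells and megakaryocytes, was at 59.4 CPM in Hox-WT, 124 CPM in Hox-URE and 1.90 CPM in URE-AML (31.3-fold below Hox-WT, adjusted p = 2.71e-09).

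Several of the receptors mark mature cell types, so marker lists of those types were read beside them. The shares of all genes called higher and lower than in Hox-WT, against which their counts stand, were 21.3% and 15.9% for Hox-URE and 23.0% and 20.2% for URE-AML. Monocyte and macrophage markers went against *Ccr2* in Hox-URE: 8 of 9 tested were lower than in Hox-WT and none was higher. Their summed level was 8.23 to 17.5 CPM in Hox-URE, 405 to 432 CPM in Hox-WT and 524 to 1160 CPM in URE-AML. The higher sum in URE-AML was not shared by most of the list, since 5 of 9 were lower than in Hox-WT there and 3 were higher, among them *Ly6c2* (49.3 against 671 CPM, 13.6-fold) and *Cd14* (61.9 against 189 CPM, 3.05-fold). *Csf1r* and *Fcgr1*, which help to define the lineage, had 0 counts in all Hox-URE libraries. Both were low in Hox-WT too, with *Csf1r* at 13, 25 and 28 counts (0.783 CPM) and *Fcgr1* at 7.8 CPM. In URE-AML, *Fcgr1* had 0 counts as well and *Csf1r* had 1, 0 and 0. Basophil and mast cell markers went with *Ccr2* and *Ccr3* in Hox-URE, with 6 of 7 tested higher there than in Hox-WT and a summed level of 1840 to 6560 CPM against 612 to 933 in Hox-WT and 44.2 to 80.4 in URE-AML. *Prss34*, a basophil protease gene, was at 591, 442 and 1080 CPM in Hox-URE and at most at 1.12 CPM elsewhere, while the IgE receptor gene *Fcer1a* had 0 counts in Hox-URE.

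Neutrophil markers went with *Cxcr2*, *Cxcr4* and *Ccr1* in URE-AML, where 10 of 12 were higher than in Hox-WT and 1 was lower. They summed to 9380 to 21200 CPM in URE-AML, 4080 to 6920 CPM in Hox-WT and 139 to 152 CPM in Hox-URE, so in Hox-URE they were lowest while *Ccr1* and *Cxcr4* were above Hox-WT. Different genes led the sums. *Mpo* made up most of that of Hox-WT (5040 CPM) and was at 192 CPM in URE-AML, where *Elane* led (7310 CPM against 181 CPM in Hox-WT). Eosinophil markers summed to 0.255 to 1.45 CPM in Hox-URE, where *Ccr3* was highest, 20.7 to 26.0 CPM in Hox-WT and 14.1 to 55.5 CPM in URE-AML, and *Il5ra* and *Epx* had 0 counts in Hox-URE. T and NK cell markers summed to 31.5 to 47.6, 10.8 to 18.5 and 7.07 to 25.4 CPM in the order Hox-WT, Hox-URE, URE-AML, with 5 of 10 at 0 counts throughout. *Nkg7* (36.2, 9.05 and 16.4 CPM) and *Lck* (5.39, 5.80 and 0.648 CPM) made up nearly all of these sums. B cell markers summed to 37.6 to 50.5, 34.5 to 41.2 and 0.0 to 0.190 CPM in that order. Dendritic cell markers summed to 93.2 to 126, 11.4 to 17.4 and 0.129 to 0.444 CPM, and *Flt3*, which progenitors express too, was the only one of the 8 that was tested. Of 7 tested progenitor markers, Hox-URE had 1 above and 4 below Hox-WT (21.3% and 15.9% of all genes). URE-AML had 1 above and 6 below it (23.0% and 20.2% of all genes). The 1 above became 2 in Hox-URE without its library 1 and 0 in URE-AML without library 2 of Hox-WT. The part of these marker differences in the receptor differences was not tested.

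For each tested receptor, the nearest patterns over the 9 libraries were sought by the root mean square difference of centered log2 CPM. These differences are not comparable between receptors, whose own log2 CPM spanned ranges of 2.66 (*Cxcr4*) to 11.7 (*Ccr1*). The nearest genes to *Cxcr4* were *Slco4a1* (0.153) and *Mpc2* (0.158), and those to *Cxcr2*, with a range of 2.92, were *Pcdhgc3* (0.201) and *Plxnd1* (0.246). The Hox-URE peak of *Ccr2* (range 6.46) was shared most nearly by *Gli3* (0.218) and *Pcsk1* (0.225). *Ccr3* (range 3.36) had *Pdcd1lg2* (0.304) and *Il18rap* (0.358) nearest, and *Cx3cr1* (range 2.81) had *Suox* (0.391) and *Acot11* (0.409). For *Ccr1* they were *Ccdc85a* (0.766) and *Rnf217* (0.772). No receptor had another of the 9 among its nearest genes.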

How the data were processed

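Stranded poly-A libraries were quantified by the authors with Salmon against a GRCm38 transcriptome and summed to genes with tximport. Values in the deposited table are estimated counts in whole numbers, with no scaling for library size. Tool versions, the transcript release and any scaling for transcript length are not given in the sources used here, so a change in transcript use could alter a count. Members and gene lists were chosen with earlier results of these data known. Some genes were left out of the lists and are not reported here.

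Libraries were grouped by the labels. Genes were kept by filterByExpr (minimum count 10), which left 13082 genes and set aside 0.0499% of counts. Counts were fitted in edgeR 4.0.16 (R 4.3.3) with TMM scaling and line as the only factor over all 9 libraries, with a common biological coefficient of variation of 0.173. Pairs of lines were tested two-sided with the quasi-likelihood F test and Benjamini-Hochberg adjustment over all tested genes. Calls needed an adjusted p below 0.05 and more than a 1.5-fold change, as in the study. Named were all members, *Spi1*, ligands of members, the 2 genes nearest in pattern to each tested member, and some of the list members called in a comparison, drawn from the 4 with the largest log2 change per list and direction that had at least 1 CPM in 1 line. Not all of those 4 are named. Cell type markers were named as well. Ratios against lines with few counts carry exact conditional 95% intervals, which cover counting error only. Log2 CPM for patterns used a prior count of 2. Coordinates and exons are from GENCODE M21 (GRCm38), and exonic words of 31 bases were compared with all its transcripts. Sequences are from RefSeq (GRCm38.p6).

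Alternatives were other scalings, no filter, DESeq2 1.42.0, the replicate number as a block, only the 6 libraries compared, no fold threshold, a test against the threshold fold (glmTreat) and each library left out. Other gene lengths for the shares, and the alternatives for list genes, were added after seeing the data. The code was tested on simulated data, and figures were drawn with matplotlib 3.10.9.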

Additional observations from a re-analysis of the deposited data

How the results depend on the processing

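The log2 fold changes of the 6 tested receptors and *Spi1* gave 21 values, each repeated under up to 17 alternatives. Of 356 repeats, 342 kept their direction and side of the threshold, 10 passed it newly, 2 fell short of it and 2 turned direction. Those 2 were small differences that were not called: *Ccr2* in URE-AML against Hox-WT, at -0.05 without URE-AML replicate 2 (-0.05 to 0.30 over left-out libraries), and *Cx3cr1* in URE-AML against Hox-URE, at 0.36 without Hox-URE replicate 3 (-0.74 to 0.36). The 2 that fell short were both *Cxcr4* in Hox-URE against Hox-WT. In URE-AML against Hox-WT, the count of lower receptors was 1 rather than 0 with library size only, with no filter, with DESeq2 and with only the 6 libraries compared, in each case *Cx3cr1*, and 0 to 1 when libraries were left out. It was likewise 0 to 1 in Hox-URE against Hox-WT and 1 to 2 in URE-AML against Hox-URE, and the counts of higher receptors were 4 to 5, 4 to 4 and 3 to 3 in Hox-URE against Hox-WT, URE-AML against Hox-WT and URE-AML against Hox-URE. Scaling by library size only moved the median of all genes in URE-AML against Hox-URE to 0.109 and the split of calls to 3166 higher and 2605 lower, from 2662 and 2929; in Hox-URE against Hox-WT it gave 2502 higher and 2545 lower, from 2789 and 2084. The calls of *Ccr1*, *Ccr2*, *Cxcr2* and *Cxcr4* in URE-AML against Hox-URE were the same there. The labels did not state that replicate numbers pair the libraries. Deviations of libraries with the same number correlated weakly, at 0.01 to 0.271, with 2 of 9 pairs over 0.1. In 17 of 18 cases, however, a library correlated best with its own number in the other line, so the numbers may carry a weak shared structure. With the number as a block, 4 and 0, 4 and 0, and 3 and 1 receptors were higher and lower in these comparisons, as without it, and the block changed no call on the 6 tested receptors.

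Of 84 counts over gene lists, 1428 repeats gave 1379 within 1.5 times the original. Among 84 log2 fold changes of list genes, 1405 of 1423 repeats kept direction and call and none turned direction. Plain CPM in place of CPM per kilobase left *Cxcr4*, *Ccr2* and *Ccr1* as the leading receptors of Hox-WT, Hox-URE and URE-AML at 53.1%, 90.6% and 63.8%. Depth limits what can be said of *Ccr3*, *Ccr7*, *Ccr9*, *Cxcr3* and *Cx3cr1*, and with 1 line for each genotype and stage, no alternative separates the deletion or the leukemic state from the line.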
